A study of Sus scrofa with 23 samples.

Results

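Newborn pigs whose labels give a single disrupted copy of CFTR were compared here with wild-type newborn pigs, across every expressed gene of the kidney cortex. The members were chosen by genotype label. They are the 6 libraries labelled CFTR+/- (HET) and the 6 labelled Wild-type (WT), 12 of the 23 libraries of the series. Each library is total RNA of the cortex of another pig, sequenced after depletion of ribosomal RNA. The 11 remaining libraries, labelled CFTR-/- (CF), were left out of the comparison and appear only as values beside it. The piglets came from matings of CFTR+/- pigs at a commercial breeder, so these are outbred animals and not an inbred strain. The study compared CF with non-CF pigs and pooled both labels used here on the non-CF side. Here the question is whether the cortex of HET pigs differs from that of WT pigs in anything beyond CFTR.

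CFTR is an anion channel of epithelial cells, gated by phosphorylation through protein kinase A and by ATP, that carries chloride and bicarbonate across the apical membrane. Loss of both copies causes cystic fibrosis, a disease of airway, pancreas, gut and other epithelia, while people with a single lost copy are carriers and mostly healthy. In the kidney the channel is found along the tubule, including the proximal tubule and the collecting duct, and the kidney is mildly affected in the disease.

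Library totals ran from 37975426 to 52952273 estimated counts (median 42709608 for WT and 47476461 for HET). Levels are given as CPM, counts scaled to a library of 1000000. A count of 0 allows up to 3 counts, which by library is 0.0567 to 0.079 CPM, a limit for counting error alone. The tissue carried the transcripts that define a kidney cortex. GPX3, a secreted peroxidase made by proximal tubule cells, averaged 1774 TPM, a count per transcript length scaled to a library sum of 1000000 and the distal tubule calcium buffer CALB1 averaged 259 TPM. TPM values are relative, and LOC102723301 alone took 4.66e+05 TPM and 6.1% of the counts. Of the genes listed for neighbouring tissues, the most abundant were CYP11A1 of the adrenal gland at 2.39 TPM, CKM of skeletal muscle at 2.1 TPM, UPK3A of urothelium at 8.17 TPM and GPD1 of fat at 48.1 TPM.

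CFTR RNA itself did not follow the genotype labels. On a scale common to all 23 libraries it was lowest in the libraries labelled WT, at 1.27 to 3.67 CPM (median 2.24, n = 6), from between 60 and 178 estimated counts a library. In the libraries labelled HET it was 9.4 to 17.5 CPM (median 12.1, n = 6), from 442 to 699 counts. In the libraries labelled CF it was 12.5 to 23.5 CPM (median 20.7, n = 11). The order of the levels therefore runs opposite to the number of intact copies that the labels give, and no library labelled WT reached the lowest library of either other label. By animal, the WT libraries held 2.24 (pig 12), 3.67 (pig 16), 1.83 (pig 17), 2.25 (pig 18), 2.3 (pig 22) and 1.27 CPM (pig 23), and the HET libraries held 9.4 (pig 13), 12.4 (pig 14), 17.5 (pig 15), 13.4 (pig 19), 11 (pig 20) and 11.8 CPM (pig 21). Per transcript length the medians were 0.479 TPM for WT, 2.25 TPM for HET and 4.09 TPM for CF. The gene was thus weakly expressed at all labels. On the scale of the 12 libraries compared, the lowest HET library (9.49 CPM) held 2.58 times the CPM of the highest WT library (3.67 CPM).

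**Figure D1:**
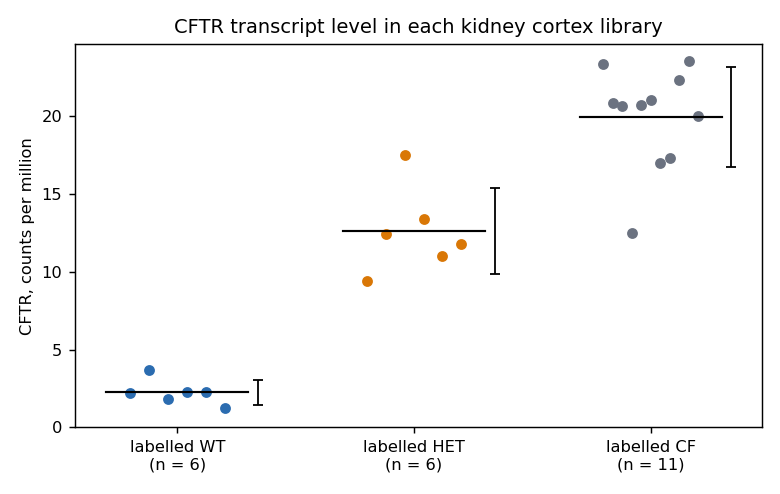
CFTR level in CPM, scaled over all 23 libraries, with a point for each library, a line at the mean and a bar of 1 SD on either side. The 6 libraries labelled WT lie between 1.27 and 3.67, below the 6 labelled HET (9.4 to 17.5) and the 11 labelled CF (12.5 to 23.5).

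CFTR lies on chromosome 18 at chr18:28627717-28818209 of Sscrofa11.1. The difference between HET and WT was a log2 fold change of 2.48 (SE 0.22, 95% interval 2.01 to 2.95, edgeR adjusted p = 0.000367), with all 6 HET libraries above all 6 WT libraries. An exact two-sided permutation test over the 924 assignments of the labels gave p = 0.00216, the smallest that these assignments allow. The pigs are numbered through the series, and the difference held in the earlier-numbered pigs (12 to 18, 4 WT and 3 HET; 2.38, adjusted p = 0.00693) and in the later-numbered pigs (19 to 23, 2 WT and 3 HET; 2.78, adjusted p = 0.00268). Most of the CFTR counts fell on 2 of the 4 annotated transcripts. The transcript XM_021078522.1 held 0 to 56 counts in WT libraries (median 22), 157 to 426 in HET libraries (median 290) and 280 to 568 in CF libraries (median 375). The curated transcript NM_001104950.1 held 17 to 92 counts in WT (median 34), 209 to 233 in HET (median 222) and 297 to 480 in CF (median 452). Both therefore showed the same order of label medians, without overlap between WT and HET. The transcript XM_021078523.1 overlapped between the labels, with 0 to 47 counts in WT and 0 to 98 in HET, and XM_021078520.1 was above 0 in 2 WT and 2 HET libraries. In the edgeR test across transcripts neither of the first pair passed alone (log2 fold change 3.43 and adjusted p = 0.739 for XM_021078522.1, 2.28 and 0.294 for NM_001104950.1), while XM_021078522.1 passed in DESeq2 (adjusted p = 0.000622). The counts do not tell RNA of an intact copy from RNA of a disrupted copy, and the genotypes could not be read from these files. What accounts for the order of the labels was not tested, so the libraries are called by their labels throughout.

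The genes on either side of CFTR did not share its difference. Of 11 annotated neighbours within 1000000 bases, 9 were expressed enough to test, and their log2 fold changes lay between -0.24 (CAV2) and 0.34 (WNT2), with a smallest adjusted p of 0.587. Each of the 9 had a 95% interval inside a log2 fold change of 1 in either direction. CTTNBP2, which codes for a cortactin-binding scaffold protein, was at 117 to 129 CPM in WT (median 127) and 113 to 131 CPM in HET (median 117), so the labels overlapped. MET, the receptor for hepatocyte growth factor, was at 112 to 162 CPM in WT (median 130) and 122 to 192 CPM in HET (median 136). These also overlapped. CAPZA2, an actin-capping protein, ST7, the signalling ligand WNT2, the caveolins CAV1 and CAV2, the RNA-binding protein LSM8 and the noncoding LOC106506804 overlapped between the labels in the same way, with log2 fold changes of 0.15, -0.04, 0.34, -0.09, -0.24, 0.19 and -0.02 in that order.

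Beyond CFTR, a single gene passed the test. Of 20963 genes tested with edgeR, 2 had an adjusted p under 0.05, which is 0.00954% of the genes, and both were higher in the libraries labelled HET. The other was ANKRD33 (chr5:17247340-17251099), which codes for an ankyrin-repeat protein known mainly from photoreceptors of the retina. It was at 0.231 to 0.679 CPM in WT (median 0.356) and 1.53 to 5.81 CPM in HET (median 2.53). All 6 HET libraries lay above all 6 WT libraries, with a log2 fold change of 2.95 (SE 0.34, 95% interval 2.23 to 3.67, adjusted p = 0.00444). It was weakly expressed, at a mean of 0.94 TPM. In the earlier-numbered pigs the log2 fold change was 2.66 (adjusted p = 0.00458) and in the later-numbered pigs 3.55 (adjusted p = 0.0781). In the libraries labelled CF it ranged from 0.177 to 3.94 CPM (median 0.913, n = 11), on the scale common to all libraries. There 7 of the 11 lay above the highest WT library and 2 below the lowest, so ANKRD33 did not keep the order of labels that CFTR showed.

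At an unadjusted p under 0.05, 1096 genes were higher in HET (5.23% of those tested) and 1025 were lower (4.89%). Both directions together made up 10.1% of the genes tested. Without any difference, a share of about 0.05 over both directions together would pass this limit. The labels did not overlap at all for 110 genes with every HET library above every WT library (0.525%) and 59 genes the other way (0.281%). Full separation in either direction has a probability of 0.00216 for a gene without any difference. Genes vary together, so these shares are descriptions and no test. The count of calls differed between tools. DESeq2 called 144 genes, 100 of them higher in HET, limma-voom with sample weights called 5 (CFTR, ANKRD33, DAZAP2, DLGAP2 and SCRN1), and an exact Mann-Whitney U test, the kind of test the study used, called 0 after adjustment, with 1770 genes at an unadjusted p under 0.05. With 6 libraries a label that exact test cannot go below p = 0.00216, which became 0.268 after adjustment, so CFTR could not have passed it. With the range of pig numbers as a term, edgeR called 10 genes, all higher in HET. Without pig 20, labelled HET, the count was 4. A fit of all 23 libraries called CFTR alone.

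For most genes the intervals were narrow. For 13273 genes (63.3%) the 95% interval of the log2 fold change excluded any value beyond 0.5 in either direction, and for 19153 genes (91.4%) any value beyond 1. These intervals are for the average over both ranges of pig numbers and do not limit the change within a range. LOC106506288, chosen after its values were seen, had an interval of -0.73 to 0.77. Its log2 fold change was 1.13 in the earlier-numbered and -1.37 in the later-numbered pigs. The median SE was 0.13 and the median half-width of the interval was 0.28. At the other end, 11 genes had an interval wholly beyond 1 and 55 wholly beyond 0.5. Pigs of the same label also differed among themselves. The biological coefficient of variation was 0.195 among HET libraries, 0.205 among WT libraries and 0.2 over all 12. The median root-mean-square log2 difference between a pair of libraries was 0.516 for pairs of HET, 0.528 for pairs of WT and 0.542 for pairs of unlike label. Within a range of pig numbers it was 0.484 for pairs of the same label and 0.529 for pairs of unlike label, and across ranges 0.547 and 0.553.

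The genes with the smallest p after CFTR and ANKRD33 missed the adjusted threshold in edgeR and are given as values. DLGAP2, a scaffold protein of the postsynaptic density, was at 10.7 to 13.4 CPM in WT (median 12.2) and 16.8 to 30.4 CPM in HET (median 20.9). The labels did not overlap (log2 fold change 0.85, SE 0.13, adjusted p = 0.0591), and the values were 1.02 in the earlier-numbered pigs (adjusted p = 0.0438) and 0.61 in the later-numbered ones (0.212). The edgeR test of that difference between ranges gave an adjusted p of 0.571. DAZAP2, a small adaptor protein expressed in most tissues, was at 110 to 132 CPM in WT (median 127) and 156 to 182 CPM in HET (median 168). It too separated the labels fully (0.44, SE 0.07, adjusted p = 0.0591 in edgeR). DESeq2 called both genes, with an adjusted p of 2.31e-06 for DLGAP2 and 2.1e-06 for DAZAP2. In the CF libraries DAZAP2 was at 131 to 200 CPM, above the highest WT library in 10 of 11. There DLGAP2 was at 7.6 to 20.2 CPM, above the highest WT library in 5 of 11 and below the lowest in 3.

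The others higher in HET were C6H1orf210 (log2 fold change 0.59), SCRN1, which codes for secernin (0.49), C6H19orf81 (0.78), ALDH3A1, an aldehyde dehydrogenase (0.86), the zinc finger gene ZNF133 (0.62) and GABARAPL1, a protein of the autophagosome membrane (0.49). For each of these every HET library lay above every WT library, and the adjusted p ranged from 0.0591 to 0.11 in edgeR. All of them passed in DESeq2, with an adjusted p from 2.44e-05 (C6H1orf210) to 0.000406 (GABARAPL1). GABARAPL1 was well expressed, at 83.2 to 117 CPM in WT (median 100) and 125 to 157 CPM in HET (median 136). Fitting the range of pig numbers brought DLGAP2, DAZAP2, SCRN1 (each at 0.0434), C6H1orf210 and ZNF133 (each at 0.0478) under an adjusted p of 0.05. KLHL21, LOC102159591 and TMIGD1 passed there too. With the Y-linked gene EIF1AY as a covariate ALDH3A1 passed, and with both terms so did HSD17B14, whose labels overlapped in the comparison above (21.1 to 53.9 CPM in WT, 21.8 to 135 CPM in HET). Without pig 20, LOC110257421 and DLGAP2 joined CFTR and ANKRD33.

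Among genes lower in HET none had an adjusted p under 0.05 in edgeR, where 1025 were lower at an unadjusted p under 0.05 and DESeq2 called 44. TMEM132E, a transmembrane protein needed for hearing, was at 2.4 to 6.52 CPM in WT (median 3.34) and 1.04 to 1.8 CPM in HET (median 1.48). The labels did not overlap, with a log2 fold change of -1.32 (SE 0.23, adjusted p = 0.0818 in edgeR and 6.21e-05 in DESeq2). MEOX2, a homeobox transcription factor of mesoderm and endothelium, was at 0.42 to 1.46 CPM in WT (median 0.612) and 0.152 to 0.322 CPM in HET (median 0.26). That was a log2 fold change of -1.47 (SE 0.33, adjusted p = 0.223 in edgeR and 0.0174 in DESeq2), again without overlap. LOC110258846 (-1.03), ADAM11 (-0.57), FGF11 (-0.63) and LRRN1 (-0.37) did not overlap either, while KIAA1456 (-0.81), EFR3B (-0.66) and the imprinted zinc finger gene ZIM2 (-1.13) had 5 of 6 HET libraries below all WT libraries. Their adjusted p lay between 0.139 and 0.223 in edgeR. DESeq2 called each of them, with an adjusted p from 0.000406 (KIAA1456) to 0.00878 (ZIM2).

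**Figure D2:**
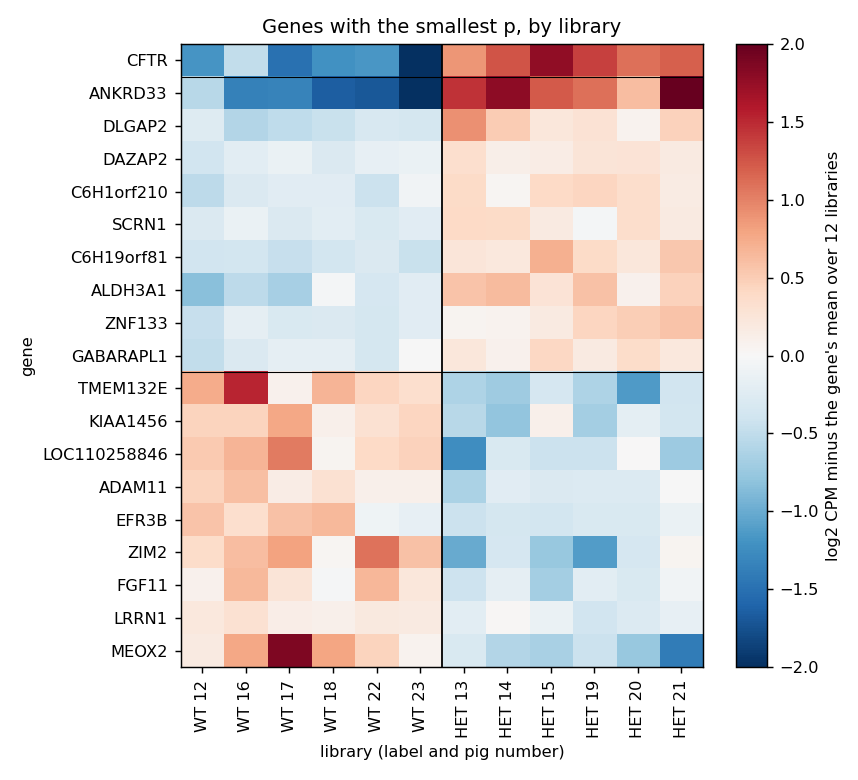
Log2 CPM of CFTR, ANKRD33 and other genes among those with the smallest p, as the difference from each gene's mean over the 12 libraries, with the libraries labelled WT on the left and HET on the right. The genes were chosen by this comparison, so their separation by label is a description, and only CFTR (adjusted p = 0.000367) and ANKRD33 (0.00444) passed the edgeR test.

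A test of each transcript without summing over genes found differences that the gene totals do not show. Of 49524 transcripts tested with edgeR, 2 passed, which is 0.00404%. The first was NM_001097478.1, a transcript of RPL14 (chr13:24691893-24698685), a protein of the large ribosomal subunit. It held 4154 to 8195 counts in WT libraries (median 5484) and 0 to 31 counts in HET libraries (median 11). The labels were therefore far apart, with a fitted log2 fold change of -8.71 (SE 0.63, adjusted p = 0.000544). As a share of the gene's counts it made up 26.4% to 49.7% in WT and 0% to 0.198% in HET. The libraries labelled CF fell into separate sets, with 7 at 3718 to 7938 counts and 4 at 14 to 29 counts. The other transcript of the gene, XM_021068170.1, went the other way, with 6020 to 13601 counts in WT (median 9994) and 14356 to 22228 in HET (median 18532). It did not overlap between the labels either, though it missed the adjusted threshold in edgeR (log2 fold change 0.82, adjusted p = 0.719) and passed it in DESeq2 (adjusted p = 0.00381). The gene as a whole was at 294 to 404 CPM in WT and 359 to 433 CPM in HET, a log2 fold change of 0.16 (SE 0.09, adjusted p = 0.558).

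The second was XM_021081218.1 of LOC100513261, with 0 counts in every WT library, 43 to 117 counts in HET libraries (median 76) and counts above 10 in 6 of 11 CF libraries (adjusted p = 0.018). No fold is given against a label at 0. Its sister transcript XM_021081217.1 held 54 to 116 counts in WT (median 93) and 0 to 33 in HET (median 0), and the gene's other transcripts overlapped between the labels. For this gene and for RPL14, reads are split by estimation among transcripts that share sequence, and the uncertainty of that split is not part of this test. Its part in these differences was not tested. With the range of pig numbers as a term the adjusted p of XM_021081218.1 was 0.095 and that of the RPL14 transcript 0.00181. XM_021081218.1 passed in 9 of 17 alternatives. It missed the threshold without pig 13, 14, 15, 19 or 20, all labelled HET, and in limma-voom (adjusted p = 0.255), and DESeq2 gave it no adjusted p. The RPL14 transcript passed in 16 of 17, all but limma-voom (0.33). The number of transcripts called was 1 without pig 13, 15, 19 or 20 and 4 without pig 21. DESeq2 called 189 transcripts, and limma-voom called 0, with 3694 at an unadjusted p under 0.05. In the test with edgeR 2684 transcripts were at an unadjusted p under 0.05.

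Leaving out single libraries brought in further transcripts. XM_005657719.3 of ZYX, a focal adhesion protein, held 0 to 15 counts in WT (median 0) and 48 to 134 in HET (median 95), and passed without pig 17, labelled WT. The labels did not overlap for it. XM_021068112.1 of ABCA5, a membrane transporter, held 0 to 2 counts in WT and 0 to 680 in HET, and passed without pig 21, labelled HET.

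Gene groups were described by their counts and medians. The 25 lists held 596 distinct genes that were tested, of which 0 passed the adjusted threshold in edgeR. At an unadjusted p under 0.05, 33 were higher in HET and 34 lower, 11.2% of the listed genes beside 10.1% of all genes tested. Of the listed genes named in the text, POSTN and LY96 were called by DESeq2. The median log2 fold change over all genes was 0.00, and no list had a median beyond 0.22 in either direction. In bulk tissue, fewer cells of a type and less RNA per cell cannot be told apart, which holds for every group that follows.

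Channels and exchangers that carry the same ions as CFTR gave a median of 0.06 over 52 tested genes, with 2 higher and 2 lower at an unadjusted p under 0.05. SLC4A4, the sodium bicarbonate cotransporter of the proximal tubule, was the most abundant, at 147 TPM. LRRC8D, a subunit of the volume-regulated anion channel, was at 180 to 194 CPM in WT (median 184) and 186 to 219 CPM in HET (median 209). The labels overlapped, with 5 of 6 HET libraries above all WT libraries and a log2 fold change of 0.16 (SE 0.06, adjusted p = 0.412). SLC26A11, an anion exchanger (0.27, adjusted p = 0.43), and ANO2, a calcium-activated chloride channel (-1.04, SE 0.45, adjusted p = 0.464), overlapped as well. The summed level of the list was 2560 to 2941 CPM in WT and 2526 to 3042 CPM in HET. For 45 of the 52 genes the 95% interval excluded a log2 fold change of 1 in either direction.

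Proteins that fold, degrade or anchor CFTR had a median of 0.03 over 34 tested genes, with 3 higher and 0 lower at an unadjusted p under 0.05. All 34 intervals lay within a log2 fold change of 1. DERL1 and RNF5, which take misfolded CFTR out of the endoplasmic reticulum, had log2 fold changes of 0.15 (SE 0.06, adjusted p = 0.457) and 0.20 (SE 0.09, adjusted p = 0.466). The cochaperone DNAJB1 had 0.22 (SE 0.10, adjusted p = 0.49). Each of these overlapped between the labels.

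Proximal tubule genes, which reabsorb most of the filtered glucose and amino acids, gave one of the higher medians, 0.17 over 32 genes, with 6 higher and 1 lower at an unadjusted p under 0.05. It was 0.10 in the earlier-numbered and 0.08 in the later-numbered pigs. SLC5A1, a sodium-glucose cotransporter, was at 15.2 to 31.1 CPM in WT (median 21.2) and 27.4 to 37.1 CPM in HET (median 32.3). It overlapped, with a log2 fold change of 0.56 (SE 0.15, adjusted p = 0.313). HNF4A, the transcription factor that drives proximal tubule differentiation, was at 215 to 427 CPM in WT (median 305) and 414 to 551 CPM in HET (median 425). This too overlapped (0.52, SE 0.14, adjusted p = 0.313), as did the brush border dipeptidase DPEP1 (0.82, SE 0.28, adjusted p = 0.397). The summed level was 13270 to 18955 CPM in WT and 15534 to 20971 CPM in HET.

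Amino acid transporters, the group the study turned to in CF kidneys, had a median of 0.00 over 51 tested genes, with 2 higher and 3 lower at an unadjusted p under 0.05. SLC3A1, a subunit of the cystine transporter of the brush border, was at 46.2 to 166 CPM in WT (median 98.7) and 136 to 188 CPM in HET (median 141). The labels overlapped (log2 fold change 0.58, SE 0.23, adjusted p = 0.431), and the value was 0.96 in the earlier-numbered and 0.02 in the later-numbered pigs. The edgeR test of that difference between ranges gave an adjusted p of 0.325. SLC43A2 (0.24, adjusted p = 0.453) and SLC43A3 (-0.24, adjusted p = 0.457) pointed in opposite directions. The summed level was 2014 to 2533 CPM in WT and 2255 to 2862 CPM in HET. Genes of gluconeogenesis and ammonia production, which newborn kidneys use to make glucose and buffer acid, had a median of 0.09 over 18 genes, with 2 higher and 0 lower. The 2 were the lactate dehydrogenase gene LDHA (0.46, SE 0.16, adjusted p = 0.403) and OGDH of the citric acid cycle (0.22, adjusted p = 0.492). The entry annotated as LDHB (chr2:12988754-12990033, mean 1.31 TPM) came next by p (0.51, adjusted p = 0.576). Its level is that of this short locus alone.

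Further along the nephron the values were as follows. Loop of Henle and distal tubule genes had a median of -0.03 over 22 genes, with 1 higher and 2 lower at an unadjusted p under 0.05. It was -0.27 in the earlier-numbered and 0.14 in the later-numbered pigs. KCNJ10, a basolateral potassium channel of the distal tubule, was at 41.5 to 56.4 CPM in WT (median 46.9) and 23.1 to 41.7 CPM in HET (median 35.5). With 5 of 6 HET libraries below all WT libraries, its log2 fold change was -0.47 (SE 0.13, adjusted p = 0.321). The tight junction gene CLDN10 had 0.42 (adjusted p = 0.452) and NOS1, the nitric oxide synthase of the macula densa, had -0.45 (adjusted p = 0.453). Collecting duct genes had a median of 0.02 over 26 genes (-0.10 in the earlier-numbered and 0.09 in the later-numbered pigs), with 1 higher and 1 lower. The proton pump subunit ATP6V1B1 of intercalated cells was at 148 to 215 CPM in WT (median 178) and 189 to 281 CPM in HET (median 222). The water channel AQP2 of principal cells was at 42.8 to 116 CPM in WT (median 62) and 38.7 to 61.9 CPM in HET (median 45.4). Neither separated the labels, at log2 fold changes of 0.32 (SE 0.11, adjusted p = 0.396) and -0.52 (SE 0.20, adjusted p = 0.412). A further pump subunit, ATP6V0A4, had 0.25 (adjusted p = 0.53).

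Podocyte genes had a median of 0.00 over 17 genes, with 0 higher and 0 lower at an unadjusted p under 0.05 in edgeR and 0 called by DESeq2. All 17 intervals lay within a log2 fold change of 1. PTPRO (-0.24, adjusted p = 0.527), a podocyte phosphatase, TCF21 (0.19) and VEGFA (0.17) had the smallest p among them. Endothelial genes had a median of -0.03 over 23 genes, likewise with 0 in either direction and 0 called by DESeq2. They were led by CLDN5 (0.30, adjusted p = 0.521), ROBO4 (-0.25) and GJA4 (0.31), and PLVAP was the most abundant at 56.9 TPM.

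Genes of the developing kidney and its stroma had medians among the lowest of the lists. Nephron progenitor and ureteric bud genes had a median of -0.18 over 22 genes, of which 4 were above 0, with 0 higher and 2 lower at an unadjusted p under 0.05. GDNF, the growth factor that induces branching of the ureteric bud, was at 10.4 to 17.5 CPM in WT (median 15) and 7.13 to 13.1 CPM in HET (median 11.3). It overlapped between the labels (log2 fold change -0.42, SE 0.15, adjusted p = 0.408), as did MEOX1 (-0.32, adjusted p = 0.424) and the transcription factor PAX2 (-0.36, adjusted p = 0.51). Stroma and vascular smooth muscle genes had a median of -0.22 over 24 genes, of which 5 were above 0, with 0 higher and 3 lower. POSTN, a matrix protein of fibroblasts, was at 45.8 to 69.3 CPM in WT (median 56.4) and 8.69 to 36.8 CPM in HET (median 24.1). Every HET library lay below every WT library (log2 fold change -1.35, SE 0.31, adjusted p = 0.227 in edgeR and 0.0323 in DESeq2). In the CF libraries POSTN spanned 18.3 to 66.9 CPM. Smooth muscle actin, ACTA2, was at 128 to 295 CPM in WT (median 207) and 129 to 164 CPM in HET (median 152), which overlapped (-0.46, SE 0.17, adjusted p = 0.404), as did ANGPT1 (-0.38, adjusted p = 0.408). The summed stromal level was 3672 to 7949 CPM in WT and 3514 to 5376 CPM in HET, with COL3A1 the most abundant at 396 TPM. The stromal median was -0.28 in the earlier-numbered pigs and 0.13 in the later-numbered pigs, and the progenitor median -0.16 and 0.03, so neither kept its sign in both ranges.

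Cell cycle genes had a median of -0.13 over 29 genes, with 0 higher and 6 lower at an unadjusted p under 0.05, and all 29 intervals lay within a log2 fold change of 1. Those with the smallest p, MCM5 (-0.36, SE 0.13, adjusted p = 0.408), MCM6 (-0.48, SE 0.19, adjusted p = 0.422) and MCM3 (-0.39, SE 0.15, adjusted p = 0.431), are subunits of the helicase that unwinds DNA for replication. MCM6 was at 87.8 to 175 CPM in WT (median 133) and 61.4 to 117 CPM in HET (median 109), with overlap. The median was -0.42 in the earlier-numbered and 0.15 in the later-numbered pigs. TGF-beta response genes had a median of -0.02 over 25 genes, with 0 higher and 1 lower, the shared member ACTA2. LDLRAD4, an inhibitor of the pathway, had 0.16 (adjusted p = 0.538), and fibronectin, FN1, had -0.48 (SE 0.25, adjusted p = 0.544). COL4A1 was the most abundant member at 388 TPM.

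Immune cell genes had a median of -0.01 over 28 genes, with 1 higher and 3 lower at an unadjusted p under 0.05. The complement gene C1QA of macrophages was at 12.5 to 20 CPM in WT (median 14.5) and 8.48 to 14.1 CPM in HET (median 12.3). It overlapped (log2 fold change -0.34, SE 0.14, adjusted p = 0.449), as did the integrin ITGAM (-0.45, adjusted p = 0.45). The list's median was -0.30 in the earlier-numbered and 0.44 in the later-numbered pigs. Toll-like receptor signalling genes had a median of 0.00 over 32 genes, with 2 higher and 0 lower. LY96, which codes for the protein that binds lipopolysaccharide beside TLR4, was at 2.69 to 4.68 CPM in WT (median 4.12) and 4.44 to 11.8 CPM in HET (median 8.08). In 5 of 6 HET libraries it lay above all WT libraries (log2 fold change 1.10, SE 0.21, adjusted p = 0.144 in edgeR and 0.000487 in DESeq2). In the earlier-numbered pigs it was 0.77 (adjusted p = 0.235) and in the later-numbered pigs 1.27 (adjusted p = 0.0385). The edgeR test of that difference between ranges gave an adjusted p of 0.661. CD14, the coreceptor of the same complex, had 0.54 (SE 0.23, adjusted p = 0.452), with 4 of 6 HET libraries above all WT libraries. Interferon-stimulated genes had a median of -0.21 over 26 genes, of which 4 were above 0, with 0 higher and 4 lower. CMPK2, a mitochondrial nucleotide kinase, was at 2.36 to 7.12 CPM in WT (median 2.72) and 1.2 to 2.18 CPM in HET (median 1.73). These did not overlap (-0.97, SE 0.27, adjusted p = 0.323), whereas the antiviral genes RSAD2 (-1.60, SE 0.54, adjusted p = 0.394) and MX1 (-0.73, SE 0.28, adjusted p = 0.419) did. The interferon median was -0.26 in the earlier-numbered and -0.06 in the later-numbered pigs.

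Erythroid genes had a median of 0.09 over 22 genes, with 4 higher and 1 lower at an unadjusted p under 0.05. AHSP, the chaperone of alpha globin, was at 0.186 to 0.704 CPM in WT (median 0.253) and 0.432 to 0.937 CPM in HET (median 0.644), with overlap (1.05, SE 0.34, adjusted p = 0.386). HBB was the most abundant at 353 TPM. The summed level of the list was 287 to 437 CPM in WT and 292 to 434 CPM in HET. That sum overlapped almost wholly.

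Genes of hypoxia and tubular injury had a median of 0.19 over 27 genes (0.12 in the earlier-numbered and 0.07 in the later-numbered pigs), of which 19 were above 0, with 8 higher and 1 lower at an unadjusted p under 0.05. SPP1, which codes for osteopontin, a secreted phosphoprotein of injured and developing tubules, was at 334 to 979 CPM in WT (median 533) and 522 to 3334 CPM in HET (median 1312). With 4 of 6 HET libraries above all WT libraries, its log2 fold change was 1.48 (SE 0.43, adjusted p = 0.333). It was 0.16 in the earlier-numbered pigs (adjusted p = 0.901) and 2.37 in the later-numbered pigs (adjusted p = 0.00991), and the test of that difference gave an adjusted p of 0.111. GDF15, a stress-induced hormone, was at 0.772 to 2.1 CPM in WT (median 1.37) and 1.67 to 4.09 CPM in HET (median 2.58), with overlap (0.87, SE 0.26, adjusted p = 0.353). The summed level of the list was 1925 to 2685 CPM in WT and 3134 to 5396 CPM in HET, which did not overlap, and SPP1 was its most abundant member at 927 TPM. HMOX1, whose label order turns between the ranges of pig numbers, is also a member, at a mean of 213 TPM. Endoplasmic reticulum stress genes had a median of -0.02 over 25 genes, with 1 higher and 0 lower. They were led by HERPUD1 (0.21, adjusted p = 0.492), DNAJB9 (0.23) and DDIT3 (0.38). Immediate early genes had a median of -0.12 over 28 genes, with 2 higher and 1 lower. PPP1R15A (0.36, adjusted p = 0.424), NR4A3 (-1.30, adjusted p = 0.458) and FOSL1 (0.86, adjusted p = 0.476) were the first by p, and the median was -0.33 in the earlier-numbered and 0.36 in the later-numbered pigs.

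Tissue carried over at dissection was looked for in the same way. Adrenal genes had a median of 0.12 over 8 tested of 16 listed, with 0 at an unadjusted p under 0.05 in edgeR and 0 called by DESeq2, led by CYP21A2 (0.54), CYP11A1 (-0.13) and MC2R (-0.19). Fat genes had a median of -0.11 over 13 tested of 14, with 1 higher (CEBPA, 0.53, adjusted p = 0.381) and 4 lower, among them the lipase gene LIPE (-0.27, adjusted p = 0.406) and leptin, LEP (-0.49, adjusted p = 0.424). Their summed level was 185 to 286 CPM in WT and 156 to 219 CPM in HET, overlapping. Skeletal muscle genes had a median of -0.06 over 11 tested of 17 and urothelial genes 0.06 over 10 tested of 14, both with 0 at an unadjusted p under 0.05 in edgeR and 0 called by DESeq2. The first by p were CASQ1 (-0.31), MYH7 (-0.57) and CKM (0.29) of muscle, and FOXA1 (0.79), UPK3B (0.47) and SNX31 (-0.44) of urothelium. The part of such tissue in the results was not tested.

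Apart from the genotype labels, the libraries were divided by a Y-linked gene and by pig number. EIF1AY, a translation initiation factor encoded on the Y chromosome, was at 15.5 to 21.9 CPM in 7 libraries and at most 0.0841 CPM in the other 5. The 7 were 5 HET (pigs 13, 15, 19, 20 and 21) and 2 WT (pigs 12 and 17), and the labels give no sex. The sex-linked list had a median of -0.05 over 10 tested of 20 listed genes, with 0 at an unadjusted p under 0.05 in edgeR and 0 called by DESeq2. Its X-linked members ZFX (-0.30, adjusted p = 0.535), KDM6A (-0.26, adjusted p = 0.536) and USP9X (-0.18, adjusted p = 0.606), which are known to escape X inactivation in humans, came first by p. The first axis of a multidimensional scaling, with 22.2% of the variance, held the 7 libraries with EIF1AY between -0.83 and -0.41 and the other 5 between 0.60 and 1.14. The second axis, with 16.4%, held the earlier-numbered pigs between -0.84 and -0.02 and the later-numbered pigs between 0.47 and 1.07. Neither axis divided the genotype labels.

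**Figure D3:**
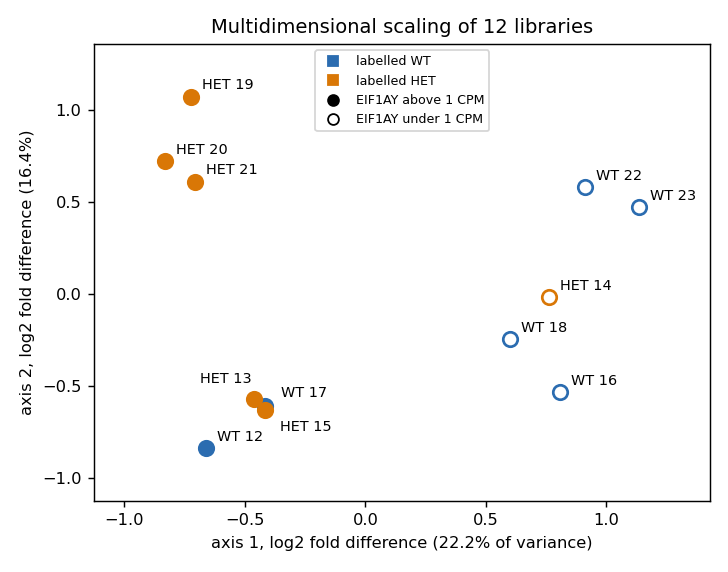
Multidimensional scaling of the 12 libraries by log2 fold differences, with colour for the genotype label and filled points for libraries with EIF1AY above 1 CPM. Axis 1 (22.2% of variance) parts the 7 libraries with EIF1AY from the other 5, and axis 2 (16.4%) parts pigs 12 to 18 from pigs 19 to 23.

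The range of pig numbers went with many genes. Its boundary, between pigs 18 and 19, was placed where earlier results of these data had parted the libraries, so its counts are descriptions and no independent test. In a fit with both terms, 938 genes (4.47%) differed between the later-numbered and the earlier-numbered pigs, 572 of them higher in the later ones. This count rested on single libraries. It was 131 without pig 13, 1434 without pig 14, 83 without pig 15, 99 without pig 19 and 129 without pig 20, all labelled HET, and 399 without pig 12, 318 without pig 16, 1899 without pig 17, 496 without pig 18 and 85 without pig 22, all labelled WT. Whether the ranges stand for litters, dates or something else is not given by the labels. Among the lists, 3 of 22 loop and distal tubule genes were higher in the later-numbered pigs (CALB1, CLDN10 and PVALB), as were 3 of 32 proximal tubule genes (CA4, SLC13A3 and SLC22A6), 3 of 26 collecting duct genes (ATP6V0D2, ATP6V1G3 and CALB1) and 3 of 34 CFTR partner genes (RAB5A, RNF5 and SGK1). The gluconeogenesis list had 1 higher (PPARGC1A). Lists with a single gene lower and 0 higher in this edgeR fit were endothelium (CDH5), nephron progenitor (WNT9B), toll-like receptor (TLR5), adrenal gland (STAR), fat (PLIN1), skeletal muscle (TTN) and urothelium (GRHL3). Podocyte (PLA2R1 and TRPC6) and stroma genes (DES and NOTCH3) had 1 in each direction. Of 52 chloride channels and anion exchangers 1 was higher and 3 were lower (ANO1, CLCN2, SLC26A7 and TTYH1), and of 51 amino acid transporters 3 were higher and 2 lower (SLC16A10, SLC36A1, SLC38A9, SLC7A10 and SLC7A7).

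Within each range, HET and WT differed in more genes than over all 12 libraries. Among the 7 earlier-numbered pigs 46 genes passed (0.217% of 21230), 34 of them higher in HET, and among the 5 later-numbered pigs 90 passed (0.424% of 21218), 71 of them higher. These fits share no library. They had 4 genes in common, 8.7% of the earlier and 4.44% of the later calls. Of the genes tested in both ranges, 404 were at an unadjusted p under 0.05 in each, 15.5% of the earlier and 19.6% of the later ones, and 147 of them had the same direction while 257 had opposite directions. Of the 4, CFTR was higher in HET in both ranges. LOC106506288, a noncoding RNA, SLC7A11, the cystine importer that supplies glutathione synthesis, and ZFAND2A, a stress-induced zinc finger protein, were higher in HET in the earlier range and lower in the later range. The later range is confounded with sex chromosomes, since its 3 HET libraries all held EIF1AY and neither of its 2 WT libraries did. Of the 43 tested genes on the Y chromosome, 14 were among its 90 and 0 among the 46 of the earlier range.

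A test of whether the difference between labels depended on the range passed for 86 genes (0.41%), 55 with a higher and 31 with a lower difference in the later-numbered pigs. The count was 166 without pig 19 (HET), 33 without pig 22 (WT) and 22 without pig 23 (WT). DESeq2 called 412 genes and limma-voom 363. None of the 86 lies on the Y chromosome. In the earlier range EIF1AY was present in 2 WT and 2 HET libraries and absent from the others, so Y genes varied within each label. This count therefore cannot show whether the test is free of the confounding with sex chromosomes in the later range. Listed genes among them were HMOX1, SLC7A11, LBP, MIOX, PAPPA2, PTPRC, BST2 and TFRC. With the X and Y genes taken out, the second axis of the scaling held HET earlier (-0.61 to -0.41) and WT later (-0.87 to -0.55) below 0 and WT earlier (0.03 to 0.65) and HET later (0.18 to 0.58) above 0, so it parted the labels within each range in opposite directions. The pair of sets on each side overlapped. The first axis then parted the ranges, at -0.78 to -0.10 for the earlier and 0.35 to 1.10 for the later pigs.

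For 7 genes, chosen after their values were seen, the order of the labels was opposite in the ranges. As background, HMOX1, SRXN1, GCLC, TXNRD1 and SLC7A11 are known targets of NRF2, a transcription factor that cells switch on against electrophiles and oxidants. HMOX1, the enzyme that breaks down heme, was at 30.3 to 55.7 CPM in the 4 WT libraries of the earlier range and 519 to 865 CPM in the 3 HET libraries of that range. In the later range it was at 334 to 471 CPM in the 2 WT libraries and 84 to 311 CPM in the 3 HET libraries. The order of the labels thus turned between the ranges (3.90, adjusted p = 0.000267, in the earlier and -1.16, adjusted p = 0.427, in the later; difference -5.07, SE 0.55, adjusted p = 0.0016). SRXN1, which repairs oxidised peroxiredoxins, was at 19.6 to 43 CPM (WT) and 197 to 245 CPM (HET) in the earlier range, and at 94.8 to 114 CPM (WT) and 29.8 to 57.4 CPM (HET) in the later range. GCLC, which makes the precursor of glutathione, went from 31.3 to 46.3 CPM (WT) and 132 to 187 CPM (HET) to 114 to 141 CPM (WT) and 44.1 to 108 CPM (HET). The differences between ranges were -4.31 for SRXN1 (adjusted p = 0.000461), -3.02 for GCLC (adjusted p = 0.00444), -2.02 for TXNRD1, a thioredoxin reductase (adjusted p = 0.00456), -3.50 for SLC7A11 (adjusted p = 0.0016) and -4.07 for ZFAND2A (adjusted p = 0.000833). In the later range alone, SRXN1 (-1.28, adjusted p = 0.0709), GCLC (-0.86, adjusted p = 0.41) and TXNRD1 (-0.36, adjusted p = 0.463) missed the threshold as HMOX1 did, while SLC7A11 (-1.44, adjusted p = 0.0379) and ZFAND2A (-0.96, adjusted p = 0.0399) passed it. SLC7A11 was at 6.9 to 8.44 CPM in the earlier WT libraries, 18.1 to 42.5 CPM in the earlier HET, 22.2 to 22.9 CPM in the later WT and 6.28 to 11.2 CPM in the later HET. Over all 12 libraries none of these passed, with an adjusted p of 0.557 for HMOX1, 0.474 for SRXN1, 0.552 for GCLC and 0.404 for TXNRD1. LOC106506288 was at 227 to 327 CPM, 506 to 696 CPM, 760 to 838 CPM and 289 to 340 CPM in that order of sets.

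GBP1, LBP and UBD, also chosen after their values were seen, were higher in the later-numbered HET pigs than in every other library. GBP1, a GTPase induced by interferon gamma, was at 296 to 304 CPM in these 3 libraries and at 13.9 to 48.2 CPM in the 9 others. LBP, which carries lipopolysaccharide to CD14, was at 50.5 to 55.7 CPM in the 3 and at 0.813 to 24.6 CPM elsewhere. UBD, a ubiquitin-like protein induced by cytokines, was at 4.63 to 8.93 CPM in the 3 and at 0.168 to 1.1 CPM elsewhere. In the 3 pigs each of these exceeded every other library, and the difference between ranges was 4.15 for GBP1 (adjusted p = 0.00641), 6.45 for LBP (adjusted p = 0.00873) and 5.82 for UBD (adjusted p = 0.00379). All 3 of these libraries hold EIF1AY, as do 4 of the 9 others. DNAH5, an axonemal dynein of motile cilia, stood apart in the 2 later-numbered WT pigs instead, at 47.9 to 51 CPM beside 3.61 to 7.08 CPM in the other 10 (difference -3.51, adjusted p = 2.28e-05). CFTR showed no such turn. Its difference between the ranges was 0.39 (adjusted p = 0.813), and the highest later-numbered WT library, at 2.3 CPM, lay below the lowest HET library of either range, at 9.49 CPM on the scale of the 12 libraries. ANKRD33 likewise separated the labels in each range (difference 0.88, adjusted p = 0.735).

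**Figure D4:**
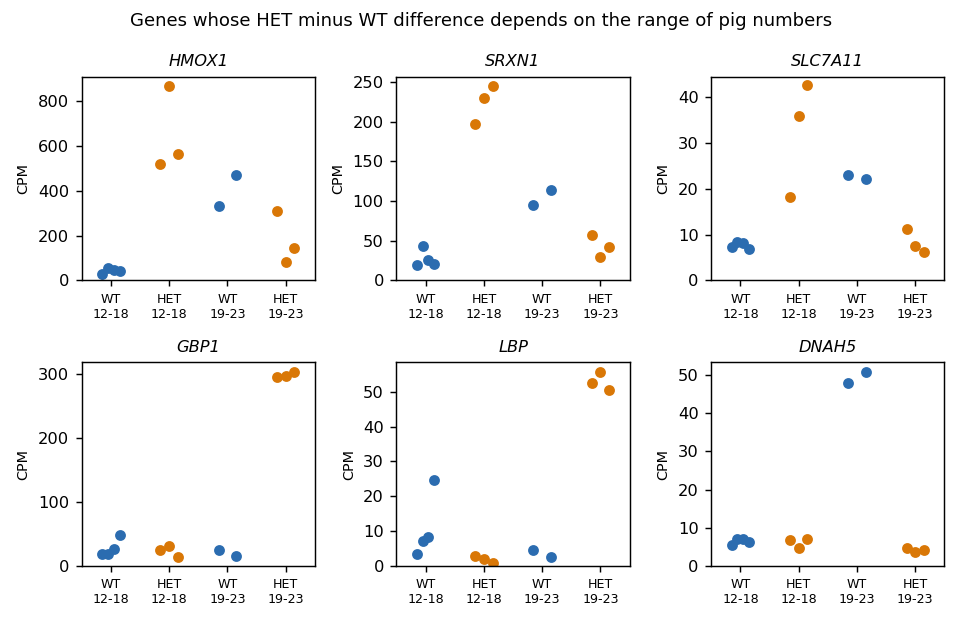
CPM of HMOX1, SRXN1, SLC7A11, GBP1, LBP and DNAH5 in each library, grouped by label and by range of pig numbers (12 to 18 and 19 to 23). HMOX1 is at 30.3 to 55.7 in the earlier WT set and 519 to 865 in the earlier HET set, and the order turns in the later sets (334 to 471 for WT, 84 to 311 for HET).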

How the data were processed

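Kidney cortex RNA from 23 newborn pigs was sequenced as ribosome-depleted, stranded Illumina TruSeq libraries. The authors used kallisto to assign reads to pig transcripts of Sscrofa11.1. The estimated count of each of 77689 transcripts, as deposited, carries no normalization. Each deposited TPM divides that count by effective length and is scaled to a common library sum. Summing over the transcripts of a symbol gave 26687 genes, rounded because 64% of transcript values were not whole, and each gene symbol and transcript accession was found in the reference annotation. CPM were scaled by TMM.

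The 6 libraries labelled HET and the 6 labelled WT were compared with edgeR 4.0.16 on R 4.3.3 (TMM normalization, filterByExpr, quasi-likelihood test, two-sided, Benjamini-Hochberg adjustment over all genes or transcripts tested, limit 0.05). A log2 fold change is HET minus WT, an interval covers 95%, and log2 CPM used a prior count of 2. The interaction fit tested the difference of the label effect, later minus earlier pig numbers. Alternatives used DESeq2 1.42.0, limma 3.58.1 (voom with sample weights), an exact Mann-Whitney U test, other normalizations and filters, further terms and subsets of libraries, and left out each library in turn. The steps were run on simulated counts with changes planted in genes or transcripts above a limit on counts. That simulation held no planted differences of sex or litter, and no planted changes in weakly expressed genes. Tables and figures were made with Python 3.11.15, pandas 2.3.3, numpy 2.4.6 and matplotlib 3.10.9.

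Genes were named by a rule. It takes CFTR, each gene past the limit, the 10 genes with the smallest p in each direction, tested genes within 1000000 bases of CFTR, the 3 members of each list with the smallest p (with the highest TPM as a level), and genes or transcripts that passed in an alternative with 5 or fewer calls. The members, lists and ranges of pig numbers were chosen with earlier results of these data known. Chosen after their values were seen were LOC106506288, SLC7A11, ZFAND2A, HMOX1, SRXN1, GCLC, TXNRD1, GBP1, LBP, UBD, DNAH5 and the listed genes named for differences between ranges of pig numbers, the genes KLHL21, LOC102159591 and TMIGD1, and the other transcripts of called genes. Some genes that the rule takes are not reported. Raw reads were not analysed here.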

Additional observations from a re-analysis of the deposited data

Results flagged for a closer look

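In 92 groups of 6 libraries, 8 held a library far from the other 5 of its label, where chance gives about 1 in 20. ANKRD33 reached 0.679 CPM in WT 12 (next 0.397), TMEM132E 6.52 CPM in WT 16 (next 3.8) and MEOX2 1.46 CPM in WT 17 (next 0.688). HSD17B14 reached 135 CPM in HET 14 (next 52.9) and CAV1 44.6 CPM in HET 13 (next 24.4). LSM8 was lowest in HET 15, at 13.9 CPM (next 17). In WT 18, GBP1 was at 48.2 CPM (next 26.9) and LBP at 24.6 CPM (next 8.32).

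For 11 of 113 genes followed, the log2 difference between HET and WT itself differed between the later-numbered and the earlier-numbered pigs, by the interaction test in edgeR. Later minus earlier, it was higher for LBP (6.45), UBD (5.82) and GBP1 (4.15). It was lower for HMOX1 (-5.07), SRXN1 (-4.31), ZFAND2A (-4.07), DNAH5 (-3.51), SLC7A11 (-3.50), GCLC (-3.02), LOC106506288 (-2.50) and TXNRD1 (-2.02). These 11 were chosen after their values were seen, and what lies behind the ranges was not tested.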

How the results depend on the processing

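CFTR was called in 26 of 27 alternatives, with log2 fold changes of 2.25 to 2.78 and, in the edgeR, DESeq2 and limma fits, adjusted p of 1.7e-26 to 0.0301. The exception was the Mann-Whitney U test (2.25), whose smallest exact p for 6 against 6 libraries (0.00216) became 0.268 after adjustment, so its missed call says nothing about stability. ANKRD33 was called in 23 of 27. The number of genes called was 144 with DESeq2, 5 with limma-voom, 1 in the fit of all 23 libraries, 10 with the number range as a term, 46 in the earlier-numbered and 90 in the later-numbered pigs. It was 0 by the Mann-Whitney U test, beside 1770 genes at an unadjusted p under 0.05. It was 2 to 4 with each library left out. Chosen after seeing the data were a fit with range and EIF1AY as terms (4 genes), the 7 libraries with EIF1AY alone (7 genes) and every alternative to the interaction fit. For transcripts the count was 189 with DESeq2, 0 with limma-voom (3694 unadjusted), 1 with the range term and 1 to 4 with a library left out. For later against earlier pig numbers it was 2486 with DESeq2, 2443 with limma-voom and 83 to 1899 with a library left out. For the interaction it was 412, 363 and 22 to 166 in the same order. Intervals within 0.5 of 0 numbered 8688 genes in the later-numbered pigs and 6292 with the EIF1AY libraries alone. The cause was not tested for any of these, though the subsets hold fewer libraries.

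Of 3113 single values under alternatives, 2984 kept direction and side of the threshold. Most of the genes followed were far from the threshold, and fits with a library left out share the remaining libraries. The count is therefore a description and no measure of reliability. Directions of log2 fold changes that turned belonged to genes that missed the threshold in edgeR over the 12 libraries. In the earlier-numbered pigs these were CAV1 (0.07), CTTNBP2 (0.00), LOC106506804 (0.11), ST7 (0.08), TCF21 (-0.03), LBP (-2.58), CYP21A2 (-0.01), SNX31 (0.11), GBP1 (-0.27) and UBD (-1.28). In the later-numbered pigs they were CAV2 (0.06), MET (-0.09), ANO2 (0.47), NOS1 (0.19), VEGFA (-0.07), DNAJB9 (-0.07), MYH7 (0.07), CKM (-0.27), LOC106506288 (-1.37), SLC7A11 (-1.44), ZFAND2A (-0.96), HMOX1 (-1.16), SRXN1 (-1.28), GCLC (-0.86) and TXNRD1 (-0.36). With the range term they were CAV1 (0.00) and LBP (-0.35), with EIF1AY as a covariate LOC106506804 (0.09), ST7 (0.01), ZFX (0.01) and CYP21A2 (-0.25), and with both terms LOC106506804 (0.09), ST7 (0.00), LBP (-0.49) and CYP21A2 (-0.35). In the EIF1AY libraries alone they were ST7 (0.01), WNT2 (-0.33) and ZFX (0.03), and with limma-voom CYP21A2 (-0.11). With a library left out, values ranged over both signs for CAV1 (-0.36 to 0.07), LOC106506804 (-0.12 to 0.06), MET (-0.01 to 0.14), ST7 (-0.08 to 0.01) and LOC106506288 (-0.15 to 0.29).

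List medians moved by at least 1 SD of the list's median level among the libraries of a label in 16 of 675 cases. Smaller shifts are not counted, such as those of cell cycle (to 0.15) and loop of Henle genes (to 0.14), both with a change of sign, in the later-numbered pigs and of immediate early genes (to -0.33) in the earlier-numbered pigs. In the later-numbered pigs the 16 included amino acid transporters (-0.12), nephron progenitor (0.03), stroma (0.13), immune cells (0.44), toll-like receptor (0.06), erythroid (0.18), immediate early (0.36), hypoxia and injury (0.07) and sex-linked genes (-0.33). In the earlier-numbered pigs they were loop of Henle (-0.27), immune cells (-0.30), cell cycle (-0.42) and hypoxia and injury (0.12), and in the EIF1AY libraries alone stroma (-0.55), erythroid (0.25) and urothelium (-0.22). No paired analysis was possible, because the labels give neither litter nor numbers shared between genotypes. Sex is not in the labels and is confounded with genotype in the later-numbered pigs. Over all 12 libraries EIF1AY was present in 5 HET and 2 WT libraries, so the main comparison is unbalanced for it as well. The main fit has no term for it. With 6 libraries a label, changes smaller than the intervals given were not detectable at this depth for weakly expressed genes.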
